A study of Mus musculus with 6 samples.

Results

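Cxcl9, Cxcl10, Cxcl11, Cxcl12, Cxcl13, Cxcl14 and Cxcl16 encode CXC chemokines that are induced by interferon or made without an inflammatory trigger, as distinct from the neutrophil-attracting members of the family. They were taken by gene name from the non-control probes of the arrays, which gave 7 genes and 10 probes among 28312 named genes and 39429 probes. Cxcl9, Cxcl11 and Cxcl12 had 2 probes each and the other 4 genes had 1. RNA was measured on 6 single-colour arrays of sorted myeloid cells, 3 for the infarcted left ventricle (heart 1, 2 and 4) and 3 for the spleen (spleen 1, 2 and 4). The mice were C57BL/6N, of wild type, and were studied 3 days after acute myocardial infarction (AMI). In both tissues the cells were sorted by flow cytometry as CD45 high and CD11b high and as low for the lineage antigens Ly6G (neutrophils), CD45R/B220 (B cells), CD90.2/Thy-1.2 (T cells) and, for natural killer cells, CD49b/DX5 and NK-1.1. Each array holds 1 spleen or 1 ventricle, and 10 ng of RNA was amplified in 1 round. The labels give neither the age of the mice nor whether a ventricle and a spleen of the same number came from 1 animal, and no uninjured mice were analysed here, so the comparison is between tissues after infarction and not between infarcted and healthy animals.

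Chemokines are small secreted proteins that steer leukocytes through G protein-coupled receptors. Cxcl9, Cxcl10 and Cxcl11 are made by macrophages and other cells in response to interferons and attract activated T cells and natural killer cells through Cxcr3. Cxcl12 retains progenitors and leukocytes in bone marrow and tissue through Cxcr4, Cxcl13 guides B cells into follicles through Cxcr5, and Cxcl16 is a membrane-anchored ligand of Cxcr6 that also serves as a scavenger receptor and is released by proteases. After infarction, monocytes from the blood and spleen enter the damaged ventricle and become macrophages there.

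The promoters of the Cxcr3 ligands Cxcl9 and Cxcl10, which lie close together in the genome, are shown because these genes gave different results below. Cxcl11 and Cxcl16 had no promoter entry and were not searched. The promoter of Cxcl14 is shown because it was the other searched member with a matched interferon motif. Sequences are from RefSeq (GRCm38.p6) and cover the 250 bases before the transcription start, on the gene's own strand. They are chr5:92328080-92328329 for Cxcl9, chr5:92348890-92349139 for Cxcl10 and chr13:56296552-56296801 for Cxcl14, each on the minus strand. Capitals mark matches to an interferon-stimulated response element (ISRE, the letters GAAA, any 2 bases, then GAAA), an interferon-gamma-activated site (GAS, TTCNNNGAA) or the NF-kB consensus, searched on both strands.
Cxcl9: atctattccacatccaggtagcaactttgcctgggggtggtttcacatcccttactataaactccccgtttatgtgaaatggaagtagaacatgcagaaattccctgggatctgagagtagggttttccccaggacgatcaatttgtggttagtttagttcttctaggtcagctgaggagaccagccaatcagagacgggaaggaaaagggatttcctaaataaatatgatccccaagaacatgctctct
Cxcl10: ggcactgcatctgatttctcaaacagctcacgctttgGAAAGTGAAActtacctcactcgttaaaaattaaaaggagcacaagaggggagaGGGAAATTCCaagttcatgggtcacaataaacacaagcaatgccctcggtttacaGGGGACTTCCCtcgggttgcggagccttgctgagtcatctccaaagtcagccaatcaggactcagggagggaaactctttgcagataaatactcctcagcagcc
Cxcl14: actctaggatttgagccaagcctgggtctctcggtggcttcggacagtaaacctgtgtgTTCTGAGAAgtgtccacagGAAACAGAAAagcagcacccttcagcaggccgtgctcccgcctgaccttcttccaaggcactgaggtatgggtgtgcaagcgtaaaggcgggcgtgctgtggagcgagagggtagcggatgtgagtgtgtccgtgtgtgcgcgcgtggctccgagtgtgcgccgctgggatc
The Cxcl10 window held an ISRE match, GAAAGTGAAA, from 213 to 204 bases before the start. It also held NF-kB matches, GGGAAATTCC at 159 to 150 and the overlapping GGGGACTTCC and GGGACTTCCC within 104 to 94. Cxcl14 had an ISRE match, GAAACAGAAA, at 172 to 163 and a GAS match, TTCTGAGAA, at 191 to 183. The Cxcl9, Cxcl12 and Cxcl13 windows had 0 matches, which says only that these letters are not in this stretch. Among 27025 genes with a promoter entry, 3.46% had an ISRE match, 8.13% a GAS match and 8.23% an NF-kB match, and 0.192% (52 genes) had ISRE and NF-kB matches in the same window. A match is a description of letters and does not show a binding site.

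Both Cxcl11 probes held letters that recur elsewhere in the genome. Each array probe is 60 bases long, and every stretch of 15 bases in it was looked up, on both strands, in the promoter sequences of all genes as a sample of the genome. The stretches below are the parts of the 2 Cxcl11 probes with the most hits, written in the letters of the probe, and capitals mark the 15 bases found most often.
Cxcl11 probe, chr5:92788567-92788626 (mm9), bases 14 to 43: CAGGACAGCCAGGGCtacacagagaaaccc
Cxcl11 probe, chr5:92788640-92788699 (mm9), bases 17 to 46: agcacttgaaAGGCAGAGGCAGGAGgatct
The capitals of the first stretch occurred in the promoters of 26 genes (0.0962% of the 27025) and on probes of 5 other genes of the array. Those of the other stretch occurred in the promoters of 5 genes and on a probe of 1 other gene. Of the 46 possible 15-base windows of the first probe, 28 occurred in at least 1 promoter, and only 1.18% of all probes had a window found in as many genes. The other Cxcl11 probe had 13 such windows. By contrast, the probes of Cxcl9, Cxcl10 and Cxcl14 had 0, those of Cxcl12 had 6 and 1, and those of Cxcl13 and Cxcl16 had 1 and 2. Cxcl11 is listed as a transcribed pseudogene in the RefSeq table of GRCm38, and in C57BL/6 mice its reading frame is known to be shifted, so that no full-length protein is made.

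The share of probes well above background ranged from 52.8% to 63.6% over the arrays, and 0 spots were saturated. The array's 75th percentile of signal, to which log2 levels refer, lay between 1451 and 1870 intensity units. Of the 16365 genes compared, 2521 (15.4%) were called at a limma adjusted p under 0.05, and 8.88% were called higher in heart and 6.52% lower. All 10 myeloid identity genes, among them Ptprc (CD45) and Itgam (CD11b), were well above background on all 6 arrays. Spleen 1 stood apart in lymphocyte RNA despite the sort. Its summed B cell marker signal was 111 times the array's 75th percentile, against 6.00 and 4.86 in spleens 2 and 4 and 2.84 to 3.19 in the hearts, and its T and natural killer cell sum was 102 against 20.4 and 12.5 and 8.54 to 10.5. Slides also differed between the tissues. Slide 1 held spleens 1 and 2, slide 3 held hearts 2 and 4, and only slide 2 held both tissues (heart 1 and spleen 4), so that a value within a slide is a single pair. The dates in the sample titles are earlier for the samples numbered 1 and 2 than for those numbered 4.

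Of the 7 genes, 4 were more abundant in the heart cells and 0 were called lower. Cxcl14, Cxcl16, Cxcl10 and Cxcl12 were called higher by limma, Cxcl9 and Cxcl11 were tested and not called, and Cxcl13 was not above background on any array and was not tested. At an unadjusted p under 0.05, the counts were also 4 higher and 0 lower. The 4 called were 4 of 6 tested, beside the 8.88% of all tested genes called higher. The median log2 fold change of the 6 was 3.14, and that of all tested genes 0.10. For the same 4 genes all 3 heart values lay above all 3 spleen values, which held for 24.1% of tested genes. Groups did not overlap in either direction for 40.7%. Cxcl12 and Cxcl14 entered the test only through the heart arrays and were below background in every spleen. Their calls and their lack of overlap therefore follow in part from the filter, and the median rests partly on unmeasured spleen values. Without spleen 1 the log2 fold changes of Cxcl14, Cxcl16, Cxcl10 and Cxcl12 were 5.29, 4.17, 3.27 and 2.89, all still called. In each of these bulk samples, a smaller number of expressing cells and less RNA per cell cannot be told apart. The p-values rest on the spread among 3 ventricles and 3 spleens.

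**Figure D1:**
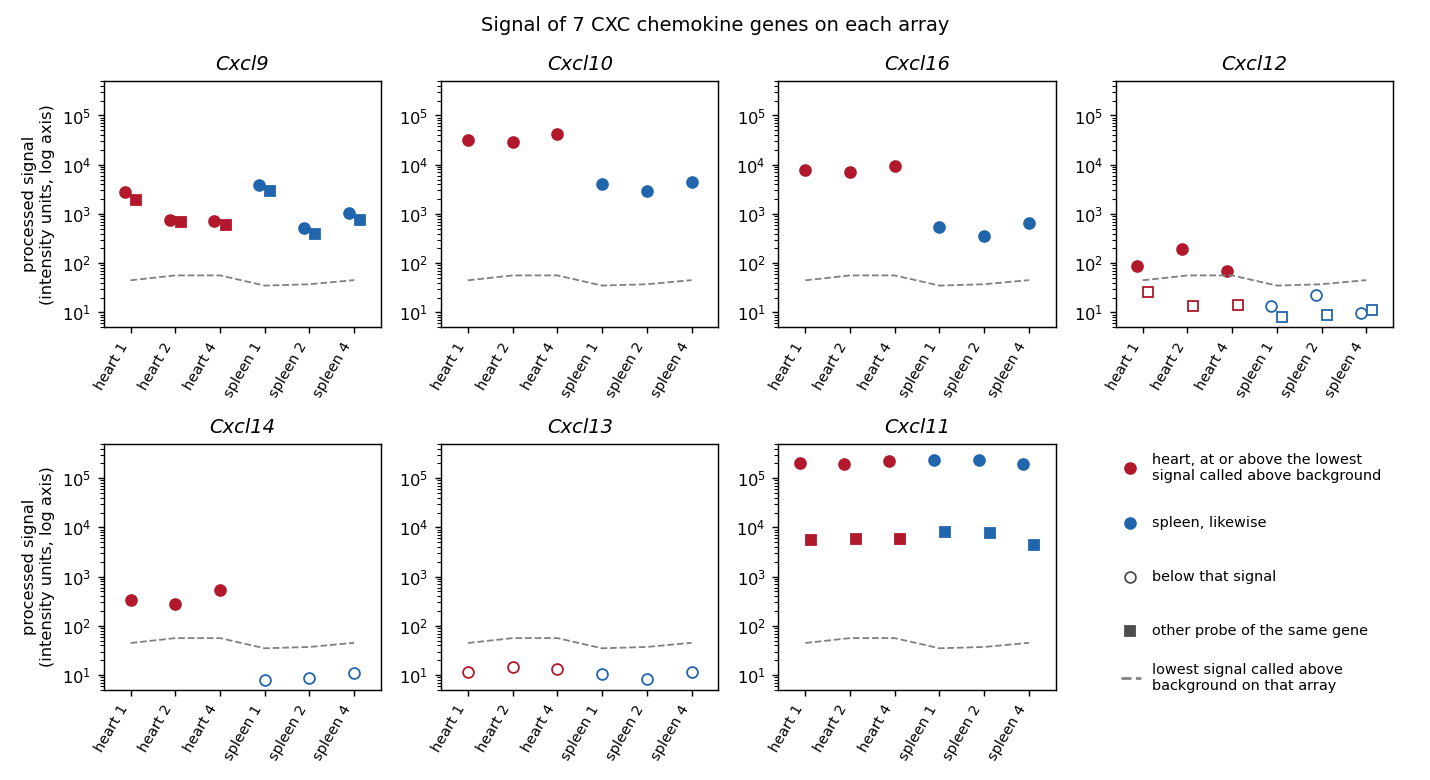
Processed signal (intensity units, log axis) of the 7 CXC chemokine genes on each of the 6 arrays, hearts in red and spleens in blue. Circles are the probe used for the gene, squares a gene's other probe, open symbols lie below the lowest signal called above background on that array (dashed line), and each symbol is 1 sample. Cxcl10, Cxcl16, Cxcl12 and Cxcl14 are higher in all 3 hearts than in any spleen, while Cxcl9 is highest in spleen 1 and heart 1.

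Cxcl10, the Cxcr3 ligand induced by type I and type II interferon, was about 10 times as abundant in the heart samples. Its signal (mm9 chromosome 5, 92775781 to 92775840, minus strand) was 31568, 28342 and 41443 intensity units in hearts 1, 2 and 4. In spleens 1, 2 and 4 it was 4137, 2943 and 4483. The groups did not overlap, and the lowest heart lay far above the highest spleen. On the log2 scale relative to the 75th percentile of the array, heart stood at 4.43 ± 0.17 and spleen at 1.16 ± 0.27 (SD, n = 3 each). The difference was 3.28 ± 0.21 (SE), or 9.68-fold with a 95% interval of 6.81 to 13.8 (limma, Benjamini-Hochberg adjusted p = 0.00084). Pairs of samples with the same number differed by 3.24, 3.40 and 3.18. In the pair that shared slide 2 the log2 difference was 2.95, and with slide as a fixed block the call was lost (limma adjusted p = 0.0662).

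Cxcl9, a near neighbour on the chromosome and also a Cxcr3 ligand, which depends mainly on interferon-gamma, did not separate the tissues. Its signal (chromosome 5, 92752191 to 92752250, minus strand) was 2823, 758 and 714 in hearts 1, 2 and 4 and 3909, 526 and 1028 in spleens 1, 2 and 4. Heart 1 and spleen 1 were high and the other 4 samples low, so the groups overlapped. Mean log2 levels were -0.43 ± 1.16 in heart and -0.41 ± 1.35 in spleen (SD, n = 3 each), a difference of -0.02 ± 0.82 (SE; limma adjusted p = 0.992). The 95% interval of -1.99 to 1.95 reaches up to 3.87-fold higher in heart. The other probe (92752796 to 92752855) showed the same ordering, with 1913, 698 and 595 in heart and 2919, 396 and 760 in spleen. In the slide 2 pair heart exceeded spleen by 1.59, while in the pairs numbered 1, 2 and 4 the differences were -0.16, 0.66 and -0.55.

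The ratio of Cxcl10 to Cxcl9, looked at because the genes differed above, is given within each array, where it does not depend on scaling. The log2 difference of the 2 signals was 3.48, 5.23 and 5.86 in hearts 1, 2 and 4 and 0.08, 2.48 and 2.13 in spleens 1, 2 and 4. All hearts lay above all spleens, with a mean shift of 3.29. That shift is the difference of the 2 fold changes given above and no separate evidence, and it was not tested. The shift of Cxcl16 relative to Cxcl9 was 4.19, and that of Cxcl10 relative to Cxcl16 was -0.90.

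Cxcl16 also rose. Its signal (chromosome 11, 70267780 to 70267839, minus strand) was 7983, 7150 and 9634 in hearts 1, 2 and 4 and 549, 350 and 649 in spleens 1, 2 and 4. The groups did not overlap, and the order of the samples within each tissue was the same as for Cxcl10, with number 4 highest and number 2 lowest. Mean log2 levels were 2.41 ± 0.11 in heart and -1.77 ± 0.42 in spleen (SD, n = 3 each). The difference of 4.17 ± 0.25 (SE) corresponds to 18.1-fold with a 95% interval of 11.97 to 27.2 (limma adjusted p = 0.000669). It was 3.75 in the slide 2 pair, where the call held with slide as a fixed block (adjusted p = 0.0469). Neutrophil markers were lower in the same heart samples, with 8 of 10 called lower, beside 6.52% of all tested genes. Their summed signal was 21.5 to 29.5 times the array's 75th percentile in heart and 540 to 1291 in spleen. Their part in the rise of Cxcl10 and Cxcl16 was not tested.

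Cxcl11, the third Cxcr3 ligand, gave no difference, on probes with the repeated letters shown above. Its brighter probe (chromosome 5, 92788567 to 92788626, minus strand) read 199975, 195921 and 222097 in hearts 1, 2 and 4 and 237521, 229663 and 193377 in spleens 1, 2 and 4. Every one of these values lay above the 99th percentile of its array (140572 to 189192), and the groups overlapped. The log2 difference was 0.05 ± 0.17 (SE, 95% interval -0.36 to 0.45; limma adjusted p = 0.88). The other probe (92788640 to 92788699), 5535, 5684 and 5723 in heart and 8132, 7790 and 4430 in spleen, differed by -0.07 ± 0.27 (SE; limma adjusted p = 0.879). Whether these signals come from Cxcl11 RNA or from other RNAs with the same letters was not tested.

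Cxcl14 was well above background in all hearts and in no spleen. It is made constitutively in epithelia such as skin and attracts monocytes and dendritic cell precursors. Its signal (chromosome 13, 56390078 to 56390137, minus strand) was 330, 278 and 525 in hearts 1, 2 and 4, each well above background, and 8.08, 8.75 and 10.96 in spleens 1, 2 and 4, where it was not well above background. Since the spleen values are only bounds, Cxcl14 was at least 10.3-fold higher in heart. The bound sets the mean heart level against the lowest signal called well above background on each spleen array, which was 35.1, 37.4 and 45.3. The log2 means as measured were -2.09 ± 0.36 (SD, n = 3) and -7.53 ± 0.31 (SD, n = 3), a fitted difference of 5.45 ± 0.26 (SE; limma adjusted p = 0.00032). With normexp background correction, which lifts dim values, the fitted difference was 2.65 (adjusted p = 0.00123).

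Cxcl12, the ligand of Cxcr4, was low in heart and below background in spleen. Its probe at chromosome 6, 117131227 to 117131286 (plus strand) read 86.8, 193 and 69.9 in hearts 1, 2 and 4 and 13.6, 23.0 and 9.72 in spleens 1, 2 and 4. Heart 2 was highest and heart 4 lowest among the hearts, and all 3 hearts, but no spleen, were well above background. Cxcl12 was thus at least 2.98-fold higher in heart. Measured log2 means were -3.87 ± 0.87 (SD, n = 3) and -6.88 ± 0.68 (SD, n = 3), a fitted difference of 3.00 ± 0.52 (SE; limma adjusted p = 0.0168), and 1.35 with normexp (adjusted p = 0.0321). The call ended without heart 1 (adjusted p = 0.0685), without heart 2 (0.053) and with slide as a fixed block (3.29, adjusted p = 0.2). A second Cxcl12 probe, farther upstream at 117125026 to 117125085, read 26.2, 13.6 and 14.3 in heart and 8.27, 8.72 and 11.4 in spleen and was not above background on any array.

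Fibroblast markers, genes of the connective tissue cells that are a known source of Cxcl12, moved in the same samples. Of 12 markers 7 were tested and 5 were called higher in heart, beside 8.88% of all tested genes. By fitted change the called markers were led by Col3a1 (at least 25.5-fold, limma adjusted p = 0.00749) and Mgp (at least 10.5-fold, adjusted p = 0.00101). Col3a1 had no value in spleen 1, so its bound and p-value rest on spleens 2 and 4. Col1a2, well above background on all 6 arrays, was 19.2-fold higher (limma adjusted p = 0.00279). Col1a1, Col3a1, Dcn and Mgp entered the test only through the heart arrays, so their calls follow in part from the filter. Among probes above background on all 6 arrays the count was 1. It was 3, 3 and 4 without hearts 1, 2 and 4, 3 on the samples of the earlier date and 1 with slide as a fixed block. The other 2 tested markers, Pdgfrb (-0.96, adjusted p = 0.16) and Thy1 (-4.09, adjusted p = 0.145), were lower in all 3 hearts than in any spleen and were not called (5 higher and 1 lower at an unadjusted p under 0.05). The sort for CD45 high and CD11b high cells is one that would remove fibroblasts. Over all 12 markers the summed signal was 2.66, 5.78 and 2.08 times the array's 75th percentile in hearts 1, 2 and 4 and 12.6, 0.773 and 0.519 in spleens 1, 2 and 4, so that spleen 1 exceeded every heart. Thy1 is an antigen of the sort and a T cell gene, and a sum without it was added after its values were seen. The summed signal of the other 11 was 2.61, 5.73 and 2.03 times the array's 75th percentile in hearts 1, 2 and 4 and 0.266, 0.336 and 0.424 in spleens 1, 2 and 4. Both spleen 1 sums lack Col3a1, which had no value there. Pdgfra and Dpt, 2 defining markers, were not above background on any array. Heart 2 had both the highest fibroblast sum and the highest Cxcl12 signal. Cxcl14 was highest in heart 4, where the fibroblast sum was lowest among the hearts. The part of fibroblast RNA in the levels of Cxcl12 and Cxcl14 was not tested.

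**Figure D2:**
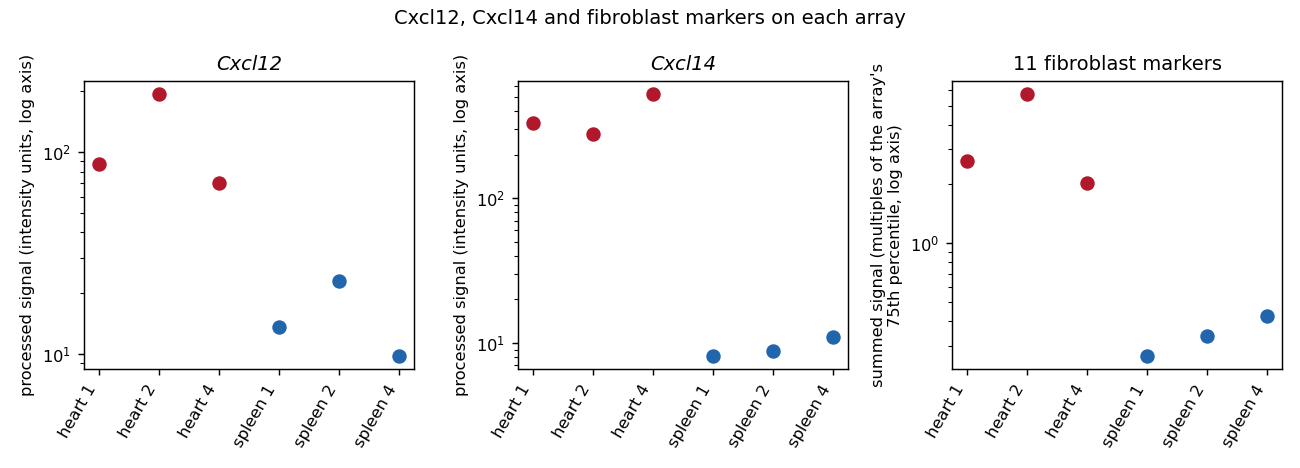
Signal of Cxcl12 and of Cxcl14 (intensity units) and summed signal of 11 fibroblast markers without Thy1 (multiples of the array's 75th percentile), on log axes, 1 point per sample with hearts in red and spleens in blue. The spleen 1 sum lacks Col3a1, which had no value there. Cxcl12 and the markers are highest in heart 2, and Cxcl14 is highest in heart 4; the spleen values of Cxcl12 and Cxcl14 are below background.

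Cxcl13, the B cell chemokine of lymphoid follicles, was not above background on any array. Its signal (chromosome 5, 96389861 to 96389920, plus strand) was 11.5, 14.3 and 13.03 in hearts 1, 2 and 4 and 10.4, 8.47 and 11.7 in spleens 1, 2 and 4. All 6 values lay below the lowest signals called above background (35.1 to 56.5), so no fold is given. This held for spleen 1 too, where the complement receptor gene Cr2, shared by follicular dendritic cells and B cells and named here after its values were seen, reached 14855 against 398 and 148 in spleens 2 and 4. Of 10 follicular dendritic and splenic stromal markers 9 had a probe and 7 were tested, and limma called 0 (1 had an unadjusted p under 0.05, lower in heart; Ltbr, the brightest, 0.70, adjusted p = 0.374). Leaving out spleen 1 or spleen 4 gave 1 and 2 calls.

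Among the receptors and processing enzymes of these ligands, Cxcr4 was called higher in heart. Cxcr4, the receptor of Cxcl12, read 6294, 7855 and 7782 in hearts 1, 2 and 4 and 1908, 2139 and 2202 in spleens 1, 2 and 4. The groups did not overlap, and the log2 difference was 1.95 ± 0.20 (SE), 3.85-fold with a 95% interval of 2.75 to 5.40 (limma adjusted p = 0.00363; 0.145 with slide as a fixed block). Of the 7 tested genes of this list it was the 1 called higher and 0 were called lower, beside 8.88% and 6.52% of all tested genes. At an unadjusted p under 0.05, 4 were higher and 1 lower.

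Cxcr3, the receptor of Cxcl9, Cxcl10 and Cxcl11, read 349, 371 and 584 in heart and 4128, 671 and 1055 in spleen. All spleens lay above all hearts, but the log2 difference of -1.62 ± 0.60 (SE) was not called (limma adjusted p = 0.122). Cxcr5, the receptor of Cxcl13, read 70.5, 242 and 165 in heart and 16653, 410 and 239 in spleen (-2.92 ± 1.52 (SE), adjusted p = 0.246). Cxcr6, the receptor of Cxcl16, was below background in every heart (11.3, 13.9 and 18.9) and read 2291 in spleen 1, 61.5 in spleen 2 and, below background, 11.7 in spleen 4, so it was not tested. These 3 receptors, all known on lymphocytes, were highest in spleen 1, the sample with the highest lymphocyte marker sums. Whether that RNA came from lymphocytes was not tested.

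Ackr3, an atypical receptor that takes up Cxcl11 and Cxcl12 and is called Cxcr7 on the array, read 457, 469 and 1175 in heart. In spleen it was well above background only in spleen 1 (513, against 8.69 and 10.9). The difference of 4.25 ± 1.48 (SE) was not called (limma adjusted p = 0.106), and without spleen 1 the fitted value was 6.09 (adjusted p = 0.00167). Spleens 2 and 4 are then both below background, so that value is no measured fold, and Ackr3 was at least 16.1-fold higher than in these 2 spleens. Dpp4, the protease that trims Cxcr3 ligands and Cxcl12, read 447, 723 and 735 in heart and 2885, 664 and 1757 in spleen (-1.14 ± 0.50 (SE), adjusted p = 0.176; -1.67 and 0.0361 without spleen 2). Adam10 and Adam17, the proteases that release Cxcl16 from the membrane, were at 0.88 ± 0.25 (SE, adjusted p = 0.0659) and 0.73 ± 0.29 (SE, adjusted p = 0.139). Both were called without spleen 4 (1.13, adjusted p = 0.00824, and 0.98, adjusted p = 0.0286), and Adam10 also on the samples of the earlier date (1.17, adjusted p = 0.0404) and with normexp (0.87, adjusted p = 0.0449).

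**Figure D3:**
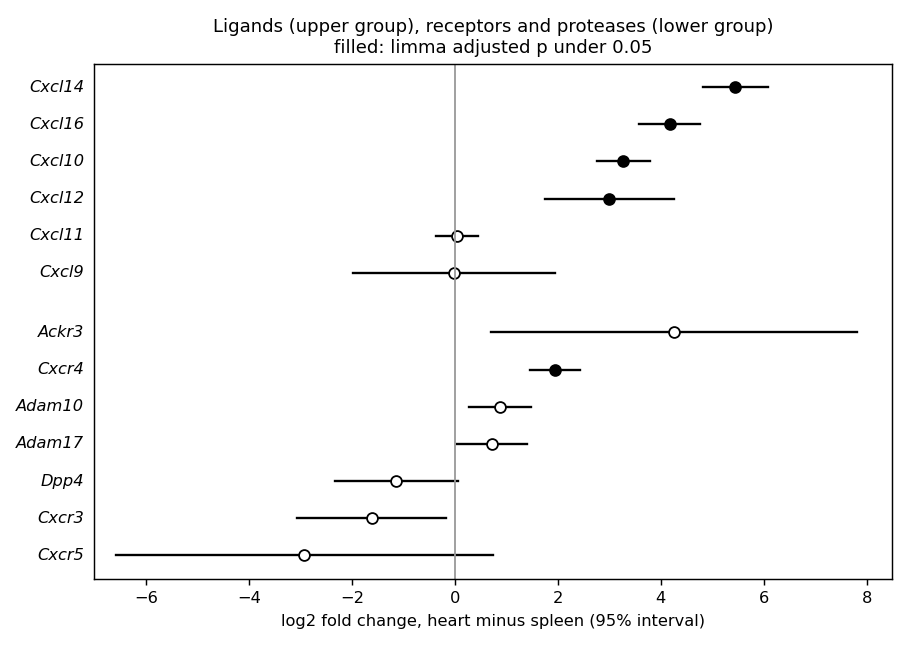
Log2 fold change, heart minus spleen, with its 95% interval (bars, limma) for the 6 tested chemokine genes (upper group) and 7 tested receptor and protease genes (lower group), from 3 samples per tissue; filled points have a limma adjusted p under 0.05. Cxcl14, Cxcl16, Cxcl10, Cxcl12 and Cxcr4 are filled and lie to the right of 0; the spleen values of Cxcl12 and Cxcl14 are below background, so their points are fitted values and not bounds.

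Among the other interferon-induced genes of the lists looked at here, the largest called log2 fold change was 2.27. Of 20 type I interferon-stimulated genes, all were tested, 4 were called higher and 0 lower, beside 8.88% and 6.52% of all tested genes, with a median log2 fold change of 0.88 against 0.10 (7 higher and 0 lower at an unadjusted p under 0.05). Rsad2, which encodes the antiviral protein viperin, differed by 2.27 ± 0.37 (SE; limma adjusted p = 0.0146) and Isg15, a ubiquitin-like modifier, by 2.07 ± 0.29 (SE; adjusted p = 0.00899). The count changed with the samples used. It was 0 without any 1 of the hearts and with slide as a fixed block, 16 without spleen 4 and 9 on the samples of the earlier date. Without any 1 of the hearts the log2 fold changes stayed at 2.25 to 2.29 for Rsad2 and 2.01 to 2.10 for Isg15. Calls among all tested genes then fell from 2521 to 450, 480 and 502 without hearts 1, 2 and 4. The summed signal was 249 to 257 times the array's 75th percentile in heart and 74.8, 103 and 207 in spleens 1, 2 and 4, so that spleen 4 was nearest to the hearts. Cxcl10 in spleen 4 (4483) was close to spleen 1 (4137), where this sum was lowest.

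Genes induced mainly by interferon-gamma were tested for 18 of 20, with 1 called higher and 0 lower. Of all tested genes 8.88% were called higher and 6.52% lower, so the list did not exceed the share of all genes. Its median was 0.25 (2 higher and 1 lower at an unadjusted p under 0.05). The one called was Fcgr1, a high-affinity antibody receptor gene (2.25 ± 0.55 (SE), limma adjusted p = 0.04). That call ended without any 1 of the hearts (adjusted p 0.128 to 0.135), without spleen 2 (0.0896), without the filter on dim probes (0.0776) and with slide as a fixed block (0.441). Of the 16 genes for interferons, their receptors and signalling, 14 were tested, with 1 higher and 0 lower, again not above the share of all genes. The median was 0.18 (2 higher and 2 lower at an unadjusted p under 0.05). The one was Ifnar1, a chain of the type I interferon receptor (1.31 ± 0.28 (SE), adjusted p = 0.0268), whose call ended without any 1 of the hearts (0.0999 to 0.109), without spleen 2 (0.0664), without the filter (0.0572) and with slide as a fixed block (0.365). Ifng, named here after its values were seen, was above background only in spleen 1 (1489), and Ifnb1 was not above background on any array.

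**Figure D4:**
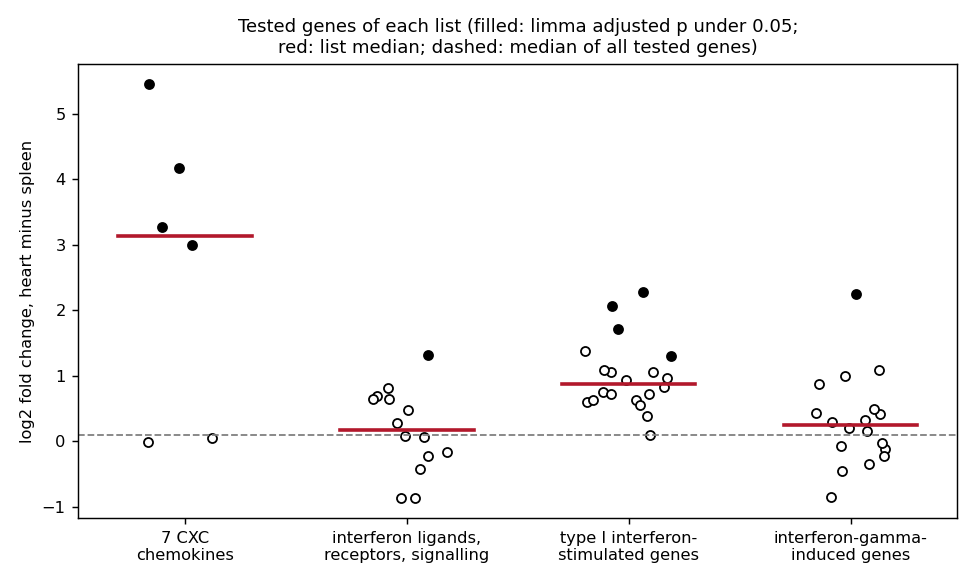
Log2 fold change, heart minus spleen, of each tested gene (1 point per gene) among the 7 chemokine genes, of which 6 were tested, and in 3 lists of interferon genes; filled points have a limma adjusted p under 0.05, red lines are list medians and the dashed line is the median of all tested genes (0.10). The list medians are 3.14 for the chemokine genes and 0.18, 0.88 and 0.25 for the interferon lists. Called chemokine genes lie at 3.00 and above, Cxcl9 and Cxcl11 at -0.02 and 0.05, and called interferon genes at up to 2.27. The spleen values of Cxcl12 and Cxcl14 are below background, so their points are fitted values and not measured folds.

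Genes whose levels followed those of a member across the 6 arrays were looked up among the 14668 or 14669 other genes above background on all arrays. These correlations are descriptions over 6 samples of 2 tissues, and any gene with a steady tissue difference scores high. For Cxcl12 and Cxcl14 the 3 spleen values are below background, so their likeness and its order rest partly on values that were not measured. For Cxcl10, 583 genes had r above 0.95, with Cxcl16 (r = 0.999), the glucose transporter gene Slc2a1 (0.999) and Rab3il1 (0.999) at the top. Rab3il1, which encodes an activator of Rab GTPases, was also nearest to Cxcl16 (r = 0.9997), followed by Cxcl10 and by Gcsh of the glycine cleavage system (0.999). Rab3il1 read 24227, 22670 and 28428 in hearts 1, 2 and 4 and 1583, 937 and 1721 in spleens 1, 2 and 4, the order of samples seen for Cxcl10 and Cxcl16.

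Cxcl14 was followed most closely by Stab1, a scavenger receptor gene (0.999), Ddx19a (0.998) and the metalloprotease inhibitor gene Timp1 (0.996), among 631 genes above 0.95. Stab1 read 12606, 10042 and 16710 in hearts 1, 2 and 4, highest in heart 4 and lowest in heart 2 as Cxcl14 was. For Cxcl12 the nearest were Col4a4, a chain of basement membrane collagen (0.994), Cdsn (0.991) and Serpina10 (0.990), with 137 genes above 0.95.

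Cxcl9 had only 4 genes above 0.95. The nearest were Gm4650 (0.983) and the interferon-gamma-inducible GTPase genes Tgtp2 (0.963) and Gbp4 (0.962). Gbp4 read 1592, 366 and 296 in hearts 1, 2 and 4 and 4239, 291 and 355 in spleens 1, 2 and 4. Like Cxcl9, it was high in heart 1 and spleen 1. The lymphocyte marker sums were high in spleen 1. In heart 1 they were 2.85 (B cell) and 9.83 (T and natural killer cell), beside 2.84 to 3.19 and 8.54 to 10.5 over the hearts. The summed interferon-gamma-induced genes were highest in heart 1 among the hearts (147, against 109 and 104). In spleens 1, 2 and 4 they stood at 96.7, 76.5 and 130, highest in spleen 4 and not in spleen 1. The part of lymphocytes or of interferon-gamma in the Cxcl9 levels was not tested.

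Cxcl11 was followed by 5430417L22Rik (0.993), Slc10a1 (0.991) and Gm4191 (0.990). Slc10a1 encodes a bile acid transporter known from the liver, and its probe read 223563 to 306987 across the 6 arrays. Its probe and that of Gm4191 had 36 and 46 of 46 windows in at least 1 promoter, with windows found in up to 11 and 98 genes, and the 5430417L22Rik probe had 13, with up to 5. The nearest genes of the other tested members had between 0 and 8 such windows. Repeated letters were thus common to the Cxcl11 probes and those of the genes that followed them, and their part in the likeness was not tested.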

How the data were processed

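The authors deposited 1 scanner file per array, holding linear intensity values for every spot. Per the submitters' processing notes and the headers, Agilent Feature Extraction 10.7.3.1 produced them, already background-corrected and not scaled between arrays. They also deposited a value table of log2 values. Its differences between arrays followed those of quantile-normalized log2 signals (r 0.992 to 0.999, slope 0.950 to 0.988 over 15 pairs of arrays), every column median was 0, and what was subtracted from each probe is unknown, so the table was used as an alternative only.

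Of 44397 spots, 43020 were not controls. Outlier spots were left out, spots of a probe averaged, and log2 signals expressed relative to the array's 75th percentile over probes. A probe was tested if either tissue had it well above background on its 3 arrays (21801 probes), and the brightest tested probe stood for each of 16365 genes. Names came from RefSeq accessions (26412 probes) or the file. The tissues were compared in R 4.3.3 with limma 3.58.1 (lmFit, eBayes, two-sided). Files were read with data.table (version 1.17.8). The p-values were adjusted by Benjamini-Hochberg over all genes and called at 0.05. The fit was tested on simulated data. A gene below background throughout a tissue is given as a bound. Sequences and figures were handled in Python 3.11.15 with pandas 2.3.3 and matplotlib 3.10.9. Probe coordinates are mm9 as in the scanner files, and exons were not analysed here. RefSeq promoters were found for 5 of the 7 genes, and not for Cxcl11 and Cxcl16.

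The 7 genes and the 16 lists were chosen with earlier results of these data known, and the sum without Thy1 was added afterwards. Named are all 7 genes with every probe, all receptors and processing enzymes, from each other list the called genes with the largest changes (2 rises, 2 falls) or, where nothing was called, the brightest gene, and for each tested gene the 3 with the highest Pearson r. Alternatives covered blocks by number, date and slide, scaling, background correction, filters, the choice of probe, the variance prior, the value table and leaving out each sample.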

Additional observations from a re-analysis of the deposited data

How the results depend on the processing

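The number of the 7 genes called higher was 4 and stayed at 3 or 4 when any 1 sample was left out, and none was called lower under any alternative. It was 2 with slide as a fixed block (Cxcl14 and Cxcl16) and 2 among probes above background on all 6 arrays, which removes Cxcl12 and Cxcl14 by construction. Cxcl14 was called in 19 of 19 alternatives and Cxcl16 in 20 of 20, Cxcl10 in 19 of 20 and Cxcl12 in 16 of 19. Same-numbered samples did not deviate together (r of -0.05, 0.04 and 0.01), so pairing by number was not shown; whether they share an animal is not stated, and the number 4 samples share the later title date. With the replicate block the count was 4. The direction of Cxcl9 (main value -0.02) turned to 0.25 on the samples of the earlier date, 1.59 and 0.053 with slide as a fixed and as a random block, 0.11 with median scaling, 0.037 with the mean of probes and 0.091 on its other probe. It also turned to 0.24 without heart 2, 0.39 without heart 4 and 0.72 without spleen 1, and was lowest, -0.68, without heart 1. That of Cxcl11 (0.05) turned to -0.018 on the earlier date, -0.11 with quantile normalization, -0.11 in the deposited value table, -0.014 with the mean of probes, -0.074 on its other probe and -0.025 without spleen 4, and ranged up to 0.13 with 1 sample left out. The cause of these changes was not tested. Median scaling moved the median of all genes from 0.10 to 0.22. Genes called overall numbered 85 with slide as a fixed block, 1587 with the replicate block, 1449 with no filter, 450, 480 and 502 without hearts 1, 2 and 4, and 4086 without spleen 4. Signal over background limits Cxcl12, Cxcl13 and Cxcl14 in spleen.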

Other observations

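Neutrophil-attracting and platelet CXC chemokines rose in the same heart samples. Of 8, 6 were tested and all 6 were called higher by limma (median log2 fold change 8.37), led by Cxcl3 (at least 815-fold) and Cxcl1 (at least 520-fold), ligands of Cxcr2. The count was 4 without any 1 of the hearts and 3 with slide as a fixed block. Cxcl1, Cxcl3 and Cxcl5 were not above background in any spleen, and Cxcl2 only in spleen 1. These genes entered the test only through the heart arrays. Their calls therefore follow in part from the filter, and the median rests partly on unmeasured spleen values. Among probes above background on all 6 arrays the count was 2. For the counts here and below, the share of all tested genes was 8.88% called higher and 6.52% called lower. Neutrophil markers, in contrast, had 8 of 10 called lower and 0 higher (9 and 0 at an unadjusted p under 0.05), with the largest falls for the granule protein genes Ngp (log2 -10.12, above background in 1 of 3 hearts) and Ltf (-9.04). Leaving out 1 sample gave 6 to 10 calls, and slide as a fixed block gave 4.

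Some markers of heart tissue were measurable in the sorted heart cells. The cardiomyocyte genes Myl3, Tnni3 and Nppa were well above background in every spleen too. Of 12 cardiomyocyte genes 7 were tested and 4 called higher, led by Actc1 (at least 4.76-fold, limma adjusted p = 0.00652) and Mb (at least 4.31-fold, adjusted p = 0.0148), with summed signals of 0.857 to 1.64 times the array's 75th percentile in heart and 0.399 to 0.627 in spleen, and Pln and Ttn not above background on any array. Without any 1 of the hearts 1 or 2 were called. Actc1, Mb and the called gene Myl2 entered the test only through the heart arrays, so their calls follow in part from the filter. Among probes above background on all 6 arrays 1 cardiomyocyte gene was called. Of 10 endothelial genes 7 were tested and 2 called higher, Cdh5 (2.50 ± 0.54 (SE), limma adjusted p = 0.0289) and Cldn5 (1.59 ± 0.36 (SE), adjusted p = 0.0323). Both of these calls ended without any 1 of the hearts and without spleen 2. Cdh5 was above background in 1 of 3 spleens and Cldn5 in 2 of 3. Both genes thus entered the test only through the heart arrays, and their calls follow in part from the filter. Requiring a signal well above background in every sample left 0 endothelial calls. Of the other tested endothelial genes, Kdr (0.50) and Egfl7 (0.32) had higher means in heart and were not called. Pecam1 (-0.63), Vwf (-0.61) and Plvap (-0.11) had lower means in heart and were not called. The summed endothelial signal was 3.40 to 4.39 times the array's 75th percentile in heart and 3.29 to 3.62 in spleen, so the tissues overlapped. Tek, Tie1 and Emcn were not above background on any array.

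Macrophage genes of the splenic red pulp and marginal zone had 2 of 8 tested called higher and 0 lower by limma (3 and 1 at an unadjusted p under 0.05), Hmox1, the haem-degrading enzyme (2.61 ± 0.25 (SE), adjusted p = 0.00259), and Nr1h3, the oxysterol receptor LXR alpha (2.09 ± 0.36 (SE), adjusted p = 0.0163). The call of Nr1h3 ended without any 1 of the hearts. The median of this list was -0.14. Among its tested genes not called, Siglec1 (2.11) and Marco (0.07) had higher means in heart. Vcam1 (-3.04), Slc40a1 (-2.44), Spic (-0.60) and Cd5l (-0.35) had lower means. Without spleen 4 this list had 3 genes called higher and 2 lower. T and natural killer cell genes had 1 of 6 called lower, the granzyme gene Gzma (-6.11 ± 1.23 (SE), adjusted p = 0.0236), which was lost without any 1 of the hearts, while 3 were called lower without spleen 1 and 4 without spleen 4. Dendritic cell genes (7 tested; Siglech 0.28), B cell genes (5 tested; Cd79b -3.37) and myeloid identity genes (10 tested; Lyz2 0.14) had 0 calls by limma. At an unadjusted p under 0.05 they had 3, 3 and 4. Leaving out 1 spleen gave 0 to 1, 0 to 2 and 0 to 5 calls. With slide as a fixed block 0 genes were called in the cardiomyocyte, endothelial, red pulp and T and natural killer cell lists.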
